A study of Arabidopsis thaliana with 36 samples.

Results

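Seedlings lacking WRKY40 and WRKY18 (wrky18 wrky40, the double mutant) were compared with seedlings lacking WRKY18 alone (wrky18), both after 2 h with flg22. The comparison therefore asks what the loss of WRKY40 does where WRKY18 is already lost. It rests on 3 double mutant and 3 wrky18 libraries of polyA RNA, 6 of the 36 libraries of the study, and on all 21356 genes that passed a filter on low counts, of 32678 in the count table. All seedlings were Arabidopsis thaliana in the Col-0 background, 12 days old, grown in MS medium with sucrose and the antibiotic claforan. The 2 h groups received fresh medium with flg22 at 1 µM. The same genotypes after 1 h of flg22 and untreated (0 h), and wrky40 and wild type (WT) seedlings after 2 h, serve as further points of comparison, with 3 biological replicates in each group. For untreated seedlings no medium change is described, so the effects of flg22, fresh medium and time of day cannot be separated where 0 h is the baseline. The mutants are labelled by gene only, so the allele, its insertion site and the number of independent lines are not given in the sources used here. In whole seedlings, fewer cells of a type and less RNA per cell cannot be told apart.

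The peptide flg22 comes from bacterial flagellin, and the receptor kinase FLS2 senses it at the plant cell surface, together with its co-receptor BAK1. Perception sets off calcium influx, an oxidative burst by RBOHD, MAP kinase cascades and a large change in transcription, followed by the synthesis of salicylic acid, ethylene and indolic antimicrobial compounds. WRKY proteins are plant transcription factors that bind the W box, a DNA motif with the core TTGAC, in the promoters of defence genes and of their own family. WRKY18, WRKY40 and WRKY60 are close relatives that form homo- and heterodimers, and WRKY40 and WRKY18 are known for restraining parts of the defence response.

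Total counts of the 6 libraries ran from 20162151 to 29702571, within 17287229 to 38709715 for all 36. The genotypes separated along the first principal component of the 6 libraries, with 37.93% of their variance, and the second had 19.98%. On the second, replicate 3 of both genotypes (27.13 and 22.96) lay apart from replicates 1 and 2, which were negative. On the first, wrky18 replicate 3 lay at -37.38, against -19.2 and -16.24 for the other wrky18 libraries. Levels are CPM, the count as a share of the library scaled by TMM, and changes are log2 fold changes of the double mutant over wrky18 with their SE. Genes were called where the adjusted p was below 0.05 in edgeR's quasi-likelihood test, with Benjamini-Hochberg adjustment over all 21356 genes. The summed level of 12 photosynthesis genes, which mark green tissue, was 29690 to 31380 CPM in double mutant libraries and 31480 to 32230 CPM in wrky18 libraries. The summed level of 13 root markers was 181.7 to 187.9 CPM in double mutant libraries and 165.8 to 180.3 CPM in wrky18 libraries. No marker of either list was at 0, and neither sum overlapped between the genotypes. Of single markers, the root gene SCR was called, lower by 0.34 ± 0.10 on the log2 scale (adjusted p = 0.0413). That call was lost with RLE scaling (adjusted p = 0.0513) and, at its weakest, without wrky18 replicate 3 (adjusted p = 0.238). The part of organ proportions in the results was not tested.

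WRKY40 (AT1G80840, chr1:30383561-30385499, plus strand) checks the labels. It had 45.8, 37.2 and 36.3 CPM in double mutant libraries and 362, 390 and 341 CPM in wrky18 libraries. All 3 double mutant libraries lay far below all wrky18 libraries (log2 fold change -3.20 ± 0.23, adjusted p = 7.02e-11). These overlapped the levels of the wrky40 single mutant, at 39.5, 40.2 and 31.6 CPM, against 366, 340 and 332 CPM in WT. WRKY18 (AT4G31800, chr4:15382777-15385100, plus strand) is mutated in both groups and still had 30.5, 30.2 and 28.3 CPM in double mutant libraries and 16.8, 14.8 and 17.7 CPM in wrky18 libraries. What remains of its transcript was thus higher where WRKY40 was missing too (0.85 ± 0.15, adjusted p = 0.000306). The intact WRKY18 gene was also higher without WRKY40, with 121, 106 and 99.8 CPM in wrky40 and 47.0, 57.0 and 47.6 CPM in WT (1.11 ± 0.14, adjusted p = 3.91e-06). WRKY60 (AT2G25000, chr2:10629662-10631413, plus strand) had 53.2, 34.4 and 38.6 CPM in double mutant libraries and 36.4, 22.1 and 33.4 CPM in wrky18 libraries. These ranges overlapped, and the difference of 0.45 ± 0.22 did not pass the test (adjusted p = 0.268).

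**Figure D1:**
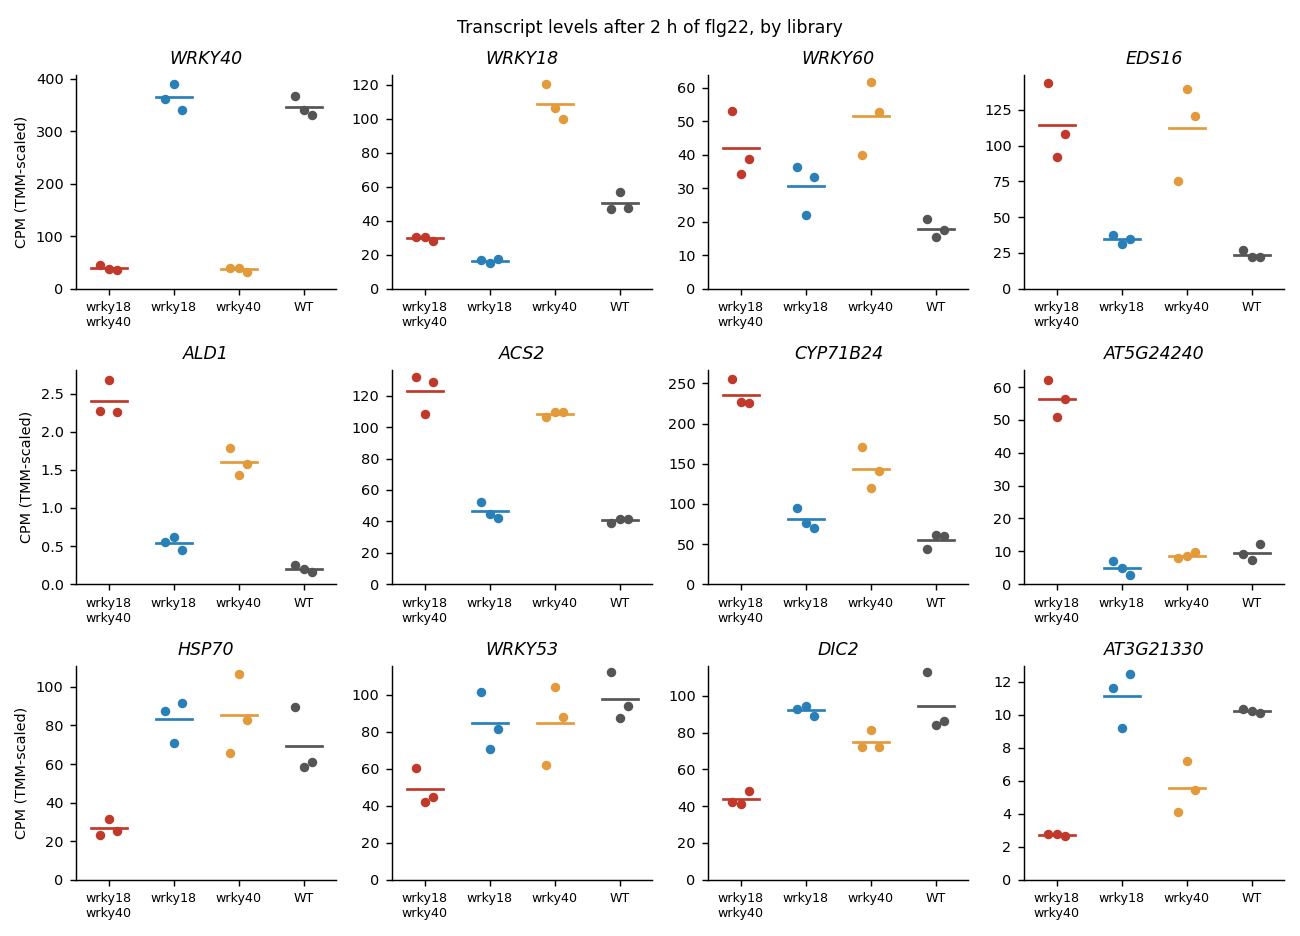
Levels of 12 genes after 2 h of flg22 in CPM scaled by TMM (y axis, from 0), by genotype (x axis: wrky18 wrky40, wrky18, wrky40, WT); each point is a library and each bar the mean of 3. EDS16, ALD1, ACS2 and CYP71B24 are high in both genotypes that lack WRKY40, while the double mutant libraries lie above the other 9 for AT5G24240 and below them for HSP70, WRKY53 and DIC2 (of these 4, AT5G24240 and HSP70 passed the test of the difference between backgrounds).

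Between the double mutant and wrky18, 1384 genes were called at 2 h, 6.48% of the genes tested. Of these, 665 were higher in the double mutant (3.11% of the genes tested) and 719 were lower (3.37%). Most changes were moderate: the median was 0.54 among the higher and -0.60 among the lower genes, and 114 rose and 143 fell by at least 2-fold. The median over all genes was -0.01. The libraries of the genotypes did not overlap in 654 of the 665 higher and 705 of the 719 lower genes, against 26.4% of all genes tested. For genes already called, a lack of overlap given below therefore adds little. In each of the 6 fits that left out 1 of the libraries, 530 of the 1384 genes were called. The number of calls was 648 without wrky18 replicate 3 and 862 without double mutant replicate 2, and 935 to 1165 without any other of the 6 libraries.

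**Figure D2:**
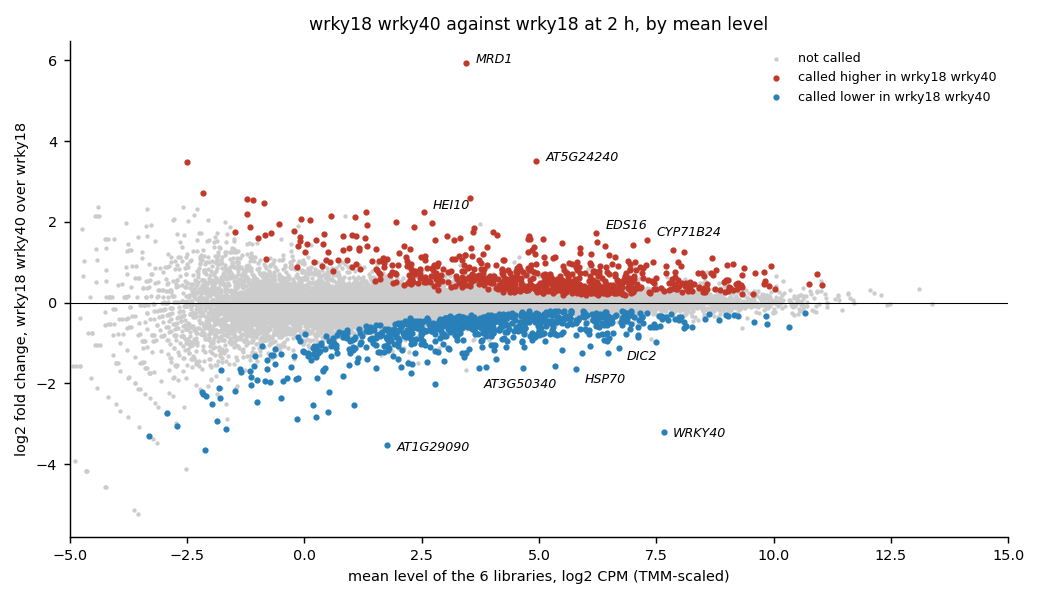
Log2 fold change of the double mutant over wrky18 at 2 h (y axis) against the mean level of the 6 libraries in log2 CPM (x axis); each point is a gene, red where called higher in the double mutant, blue where called lower and grey where not called. Of the 21356 genes, 21308 are drawn, since 48 had a mean below -5, none of them called; most called genes sit within 1 unit of 0, and MRD1, AT5G24240, AT1G29090 and WRKY40 stand farthest out among the labelled genes.

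The largest rises and falls are given for called genes whose libraries did not overlap and whose mean level reached 1 log2 CPM. The largest such rise was that of MRD1 (AT1G53480, chr1:19963047-19964712, minus strand), a gene named for its response in the mto1 mutant. It had 19.1, 22.9 and 22.5 CPM in double mutant libraries and 0.352, 0.625 and 0.0808 CPM in wrky18 libraries (5.92 ± 0.24, adjusted p = 2.16e-17). HEI10 (AT1G53490, chr1:19963267-19966952, plus strand), a RING protein that acts in meiotic crossovers, overlaps MRD1 by 1446 bases on the other strand and rose by 2.24 ± 0.17 (adjusted p = 1.7e-10). Since the strand setting of the counting is not given, reads of these genes may not be separable. MRD1 was also higher in wrky40 than in WT at 2 h, by 6.12 ± 0.22, and in the double mutant before flg22, by 6.61 ± 0.24, and after 1 h, by 6.34 ± 0.28. HEI10 was called higher in these 3 comparisons as well.

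AT5G24240 (chr5:8230916-8234150, minus strand), annotated as a phosphatidylinositol 4-kinase gamma-like protein, rose most among the remaining genes. It had 62.2, 51.0 and 56.3 CPM in double mutant libraries and 7.17, 4.999 and 2.79 CPM in wrky18 libraries (3.5 ± 0.20, adjusted p = 8.71e-14). The libraries of wrky40 and WT lay between 7.46 and 12.1 CPM. The largest rises went on with AT3G41979, a ribosomal RNA gene that polyA selection should mostly leave out (2.24 ± 0.43), CRK38, a cysteine-rich receptor-like kinase (1.96 ± 0.34), AT5G55460, of the lipid transfer protein family (1.88 ± 0.24), and AT1G58225, an uncharacterized protein (1.85 ± 0.22).

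LURP1, a gene known for late and sustained induction by an oomycete pathogen, rose by 2.12 ± 0.53, the aspartyl protease gene AT5G10760 by 1.99 ± 0.61 and the receptor-like protein gene RLP41 by 1.92 ± 0.50. These calls depended on single libraries. That of LURP1 was lost without double mutant replicate 1 (adjusted p = 0.0758) or wrky18 replicate 3 (0.0870). Those of AT5G10760 and RLP41 were lost without double mutant replicate 1, double mutant replicate 3, wrky18 replicate 2 or wrky18 replicate 3, with adjusted p of up to 0.218 for AT5G10760 and 0.111 for RLP41, and with DESeq2 (0.0787 and 0.0612).

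Promoters are shown for strongly raised genes that were also called higher in wrky40 than in WT, since these were higher without WRKY40 in both backgrounds. CRK38, AT5G55460 and AT1G58225 are the genes among the 10 largest rises that meet this and whose window holds no other gene, and CYP71B24 was chosen after its values were seen. Each window is the 250 bases before the annotated start, 5′ to 3′ on the gene's strand, from the RefSeq TAIR10.1 genome, with every TTGAC on this strand, or GTCAA where it lies on the other, in capitals.
CRK38, chr4:2241822-2242071, plus strand: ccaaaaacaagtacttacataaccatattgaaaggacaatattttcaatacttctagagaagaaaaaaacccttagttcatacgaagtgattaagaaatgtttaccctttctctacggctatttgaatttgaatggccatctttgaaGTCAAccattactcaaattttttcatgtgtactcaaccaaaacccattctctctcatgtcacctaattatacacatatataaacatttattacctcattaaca
AT5G55460, chr5:22468329-22468578, plus strand: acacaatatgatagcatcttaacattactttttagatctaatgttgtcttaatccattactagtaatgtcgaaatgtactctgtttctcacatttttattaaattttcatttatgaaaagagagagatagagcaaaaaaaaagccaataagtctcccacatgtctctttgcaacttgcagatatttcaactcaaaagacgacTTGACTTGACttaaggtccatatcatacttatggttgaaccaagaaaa
AT1G58225, chr1:21563861-21564110, plus strand: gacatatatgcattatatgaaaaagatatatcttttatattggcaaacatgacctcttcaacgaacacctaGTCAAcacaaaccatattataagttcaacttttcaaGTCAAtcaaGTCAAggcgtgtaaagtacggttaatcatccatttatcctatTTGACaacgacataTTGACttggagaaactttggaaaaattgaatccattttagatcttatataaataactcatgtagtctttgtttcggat
CYP71B24, chr3:9599989-9600238, minus strand: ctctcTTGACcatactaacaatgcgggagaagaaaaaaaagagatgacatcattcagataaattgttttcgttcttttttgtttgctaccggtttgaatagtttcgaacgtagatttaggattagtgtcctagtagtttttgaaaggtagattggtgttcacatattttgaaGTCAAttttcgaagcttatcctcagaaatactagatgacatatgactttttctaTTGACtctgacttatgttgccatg

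The CRK38 window holds 1 such site, 103 bases before the start, that of AT5G55460 holds 2 side by side at 48 and 43 bases, that of AT1G58225 holds 5 and that of CYP71B24 holds 3. The windows of EDS16 and ACS2, which also rose in both backgrounds, held none. Over all tested genes with such a window, 45.6% of 21219 held at least 1 TTGAC on either strand. Among genes called higher in the double mutant the share was 60.3% of 665, among those called lower 47.4% of 719, and among those called higher in both backgrounds 65.0% of 317. The mean GC content of the windows was 30.8%, 30.6% and 31.2% in these sets and 31.5% over all. A match gives the letters of this window only and shows no binding.

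By the same rule, falls were led by AT1G29090 (chr1:10162795-10164452, minus strand), a cysteine proteinase family gene. It had 0.387, 0.773 and 0.452 CPM in double mutant libraries and 6.86, 4.54 and 7.48 CPM in wrky18 libraries (-3.53 ± 0.34, adjusted p = 2.05e-08). PGAZAT, a polygalacturonase of the pectin-degrading enzymes, had 0.277, 0.500 and 0.979 CPM in double mutant libraries and 3.84, 3.08 and 3.88 CPM in wrky18 libraries (-2.53 ± 0.42, adjusted p = 0.000155). AT3G21330 (chr3:7507240-7509186, plus strand), a basic helix-loop-helix transcription factor, had 2.77, 2.77 and 2.67 CPM in double mutant libraries and 11.6, 9.21 and 12.5 CPM in wrky18 libraries (-2.02 ± 0.23, adjusted p = 4.93e-07). The rule itself required that the libraries of these genes did not overlap between the genotypes. AT3G50340, an uncharacterized protein, fell evenly, with 13.3, 12.7 and 11.5 CPM in double mutant libraries and 37.6, 37.7 and 39.7 CPM in wrky18 libraries (-1.62 ± 0.12, adjusted p = 1.32e-10). AIG1, a GTP-binding protein gene induced by avirulent bacteria, fell by 1.61 ± 0.28 on the log2 scale. The uncharacterized AT5G50335 fell by 1.62 ± 0.36, a call lost without wrky18 replicate 3 (adjusted p = 0.0711). HSFA2, HSP70 and BIP3 complete the 10 largest falls and are described with the heat shock genes.

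Gene lists follow, chosen with earlier results of these data known. The counts of lists and families below are to be read against all genes tested, of which 3.11% rose and 3.37% fell. Of 23 genes of salicylic and pipecolic acid synthesis and signalling, 8 rose and 2 fell, and the list's median was 0.42. EDS16 (AT1G74710, chr1:28070295-28074177, plus strand), also called ICS1, is the isochorismate synthase that makes most of the salicylic acid of defence. It had 144, 92.3 and 108 CPM in double mutant libraries and 37.2, 31.3 and 35.0 CPM in wrky18 libraries (1.73 ± 0.18, adjusted p = 1.04e-07). ALD1, the aminotransferase that starts pipecolic acid synthesis, stood at low levels of 2.27, 2.68 and 2.26 CPM in double mutant libraries and 0.548, 0.625 and 0.445 CPM in wrky18 libraries (2.15 ± 0.34, adjusted p = 7.12e-05). In both genes every double mutant library was above every wrky18 library. EDS1, a lipase-like regulator of resistance signalling, rose by 0.50 ± 0.08 and NPR4, a salicylic acid receptor, by 0.71 ± 0.14. CBP60G, a calmodulin-binding activator of EDS16 transcription, moved the other way, with 96.7, 81.2 and 87.1 CPM in double mutant libraries and 141, 120 and 129 CPM in wrky18 libraries (-0.56 ± 0.11, adjusted p = 0.00167). Its relative SARD1 did not pass the test (0.34, adjusted p = 0.455).

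Other members of that list were less certain. The pathogenesis-related gene BGL2 had 18.04, 5.41 and 36.1 CPM in double mutant libraries and 7.33, 1.67 and 0.808 CPM in wrky18 libraries, so the genotypes overlapped. Its rise of 2.60 ± 0.75 passed the test (adjusted p = 0.0315) but was lost without double mutant replicate 1 (0.0554), double mutant replicate 3 (0.240), wrky18 replicate 2 (0.120) or wrky18 replicate 3 (0.190), and with DESeq2 (0.0597). PR5 rose by 0.80 ± 0.19, a call lost without double mutant replicate 3 (0.124) or wrky18 replicate 3 (0.0746). The calls of WRKY70, AT5G52810 and NDR1 were likewise lost in at least 1 such fit, so that 4 of the 8 rises and 1 of the 2 falls were called in each of the 6 fits. PR1, a standard marker of the salicylic acid response, did not pass the test (2.14 ± 0.76, adjusted p = 0.089).

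Genes of camalexin, indole carbonyl nitrile and indole glucosinolate synthesis mostly stood higher in the double mutant: 22 of 24 had a positive change, 7 rose, 1 fell, and the median was 0.47. CYP79B2, which turns tryptophan into indole-3-acetaldoxime, the common precursor, rose by 0.73 ± 0.15 (adjusted p = 0.00168). CYP82C2, a hydroxylase of the 4-hydroxyindole carbonyl nitrile branch, had 21.0, 19.0 and 26.5 CPM in double mutant libraries and 11.5, 12.6 and 10.8 CPM in wrky18 libraries (0.93 ± 0.17, adjusted p = 0.000348). IGMT1, which methylates indole glucosinolates, had 546, 558 and 561 CPM in double mutant libraries and 309, 347 and 299 CPM in wrky18 libraries (0.80 ± 0.12, adjusted p = 3.99e-05). The genotypes were apart in both genes. IGMT1 and its neighbours are near-identical copies that can share reads. ASA1, an anthranilate synthase of tryptophan synthesis, rose by 0.42 ± 0.09. Among the MYB activators of indole glucosinolate synthesis, MYB122 rose by 0.86 ± 0.17, MYB34 fell by 1.09 ± 0.25 on the log2 scale and MYB51 did not pass the test (0.36, adjusted p = 0.176). The calls of CYP71A12 and CYP82C3 were lost without 4 and 6 of the libraries in turn, leaving 5 rises and 1 fall that were called in each of the 6 fits. PAD3, which makes camalexin in the last step, did not pass the test (0.54, adjusted p = 0.0993).

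The CYP71B cytochromes P450, a family chosen after values were seen, held 6 rises and 2 falls among 23 tested members. CYP71B24 (AT3G26230, chr3:9597941-9599988, minus strand) had 256, 226 and 226 CPM in double mutant libraries and 95.4, 76.4 and 70.0 CPM in wrky18 libraries (1.55 ± 0.12, adjusted p = 1.37e-10). Its neighbours in a tandem cluster on chromosome 3 rose with it, CYP71B22 by 1.58 ± 0.17, CYP71B3 by 0.79 ± 0.14, CYP71B23 by 0.77 ± 0.10 and CYP71B20 by 0.51 ± 0.10. CYP71B6, which lies on chromosome 2 and makes indole-3-carboxylic acid, rose by 0.85 ± 0.09. All 6 rises were called in each of the 6 fits without a library. CYP71B2 fell by 0.95 ± 0.11 on the log2 scale (adjusted p = 2.97e-07). Members of the cluster are close paralogs and can share reads.

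Ethylene synthesis and ERF genes rose in 7 of 21 cases and fell in none, with a median of 0.13. ACS2 (AT1G01480, chr1:175706-178406, plus strand), an ACC synthase that sets the rate of ethylene synthesis, had 132, 108 and 128 CPM in double mutant libraries and 52.5, 44.7 and 42.3 CPM in wrky18 libraries (1.40 ± 0.13, adjusted p = 1.63e-08). The lowest double mutant library was above the highest wrky18 library by a wide margin. The transcription factor genes ERF6 and ERF2 rose by 1.01 ± 0.23 and 0.88 ± 0.17. The ACC synthase ACS6 had 550, 468 and 518 CPM in double mutant libraries and 342, 322 and 295 CPM in wrky18 libraries (0.68 ± 0.18, adjusted p = 0.0158). Its call was lost without double mutant replicate 1 (0.0671) or wrky18 replicate 3 (0.0981). Those of EFE, ERF1 and ERF-1 were also lost in at least 1 such fit, leaving 3 rises called in each of the 6. In the jasmonate lists, 0 of 14 synthesis genes and 0 of 15 signalling genes passed the test.

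Of 31 immune receptor and signalling genes, 6 rose and 1 fell, and the median was 0.05. PUB12, a ubiquitin ligase that acts on FLS2, had 45.4, 43.9 and 43.1 CPM in double mutant libraries and 27.4, 27.5 and 28.2 CPM in wrky18 libraries (0.67 ± 0.10, adjusted p = 3.95e-05). SOBIR1, the co-receptor kinase of receptor-like proteins, rose by 0.57 ± 0.12, RBOHD, the oxidase of the oxidative burst, by 0.52 ± 0.12, and BIR1, a negative regulator of cell death that binds BAK1, by 0.36 ± 0.07. LYK4, a LysM kinase of chitin perception, fell by 0.45 ± 0.09 on the log2 scale. Each of these 5 genes had double mutant and wrky18 libraries that did not overlap, as had most called genes. Each was called in every fit that left out 1 of the 6 libraries. The calls of RLP23 and of the kinase MKK9 were lost in at least 1 such fit, for RLP23 without double mutant replicate 1 (adjusted p = 0.0659) or wrky18 replicate 3 (0.0887) and for MKK9 without wrky18 replicate 1 (0.0514).

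Most receptor families chosen after values were seen held more rises than falls. Among 39 cysteine-rich receptor-like kinases 10 rose and 2 fell, and among 47 receptor-like proteins 12 rose and 1 fell. Rises were 7 of 27 S-domain receptor kinases, 4 of 13 wall-associated kinases and 3 of 32 lectin receptor kinases, with 0 falls in each. Over all genes tested, 3.11% rose and 3.37% fell. In the same order, 7 and 1, 6 and 1, 3 and 0, 2 and 0, and 0 and 0 were called in each of the 6 fits without a library. CRK10 had 365, 399 and 387 CPM in double mutant libraries and 157, 177 and 147 CPM in wrky18 libraries (1.26 ± 0.13, adjusted p = 1.07e-07). CRK20 rose by 1.31 ± 0.15 and CRK36 by 1.47 ± 0.20, and their libraries did not overlap either. RLP35 had 132, 122 and 123 CPM in double mutant libraries and 57.5, 61.5 and 47.9 CPM in wrky18 libraries (1.17 ± 0.11, adjusted p = 2.07e-08). Of the S-domain kinases, RK1 rose by 1.74 ± 0.20 and RK2 by 0.71 ± 0.12. The nucleotide-binding leucine-rich repeat receptors, the intracellular receptors of pathogen effectors, split evenly, with 8 rises and 8 falls among 138. VQ motif proteins, several of which bind WRKY factors, held 6 rises and 1 fall among 24, led by AT1G78410 with 46.6, 36.1 and 39.2 CPM in double mutant libraries and 13.5, 13.7 and 13.6 CPM in wrky18 libraries (1.58 ± 0.14, adjusted p = 9.73e-09).

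Among 17 genes known as early responders to microbial patterns, 2 rose and 2 fell. WRKY53, a group III WRKY factor, had 60.5, 41.8 and 44.9 CPM in double mutant libraries and 102, 70.7 and 81.5 CPM in wrky18 libraries (-0.79 ± 0.16, adjusted p = 0.00191). CBP60G is the other fall and RBOHD a rise. The call of YLS9, the other rise (0.55 ± 0.15), was lost without double mutant replicate 1 (adjusted p = 0.102), double mutant replicate 3 (0.0589) or wrky18 replicate 3 (0.197). FRK1, a receptor kinase gene much used as a flg22 marker, did not pass the test (0.04 ± 0.15, adjusted p = 0.937).

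The WRKY family held 10 rises and 5 falls among 64 tested members of 72, with a median of 0.07. Rises called in each of the 6 fits without a library were those of WRKY18, WRKY75 (0.70 ± 0.14) and WRKY50 (1.67 ± 0.37). WRKY75 had 115, 118 and 104 CPM in double mutant libraries and 69.6, 78.4 and 58.9 CPM in wrky18 libraries, without overlap. Falls called in each fit were those of WRKY40, WRKY53, WRKY7 (-0.71 ± 0.11) and WRKY49 (-2.36 ± 0.45). WRKY7, a calmodulin-binding member, had 51.1, 47.1 and 50.8 CPM in double mutant libraries and 88.5, 72.5 and 82.8 CPM in wrky18 libraries, while WRKY49 was low in all 6, at 1.41 CPM or less. The further calls, rises of WRKY6, WRKY30, WRKY38, WRKY55, WRKY67, WRKY70 and WRKY71 and the fall of WRKY21, were each lost without wrky18 replicate 3, with adjusted p of 0.0517 for WRKY55 to 0.217 for WRKY6.

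Zinc finger repressors of the ZAT and AZF group went both ways, with 2 rises and 2 falls among 11. ZF3 had 7.69, 4.64 and 5.61 CPM in double mutant libraries and 16.4, 14.3 and 14.6 CPM in wrky18 libraries (-1.35 ± 0.15, adjusted p = 3.16e-07), with no overlap. ZF1 fell by 0.76 ± 0.17 on the log2 scale, a call lost without double mutant replicate 2 (adjusted p = 0.0508), and ZF2 rose by 0.72 ± 0.16, a call lost without wrky18 replicate 3 (0.0586). The rise of AT3G53600 (0.62 ± 0.19, adjusted p = 0.0483) was lost without any 1 of the 6 libraries, at adjusted p of 0.0603 to 0.254. Of 9 genes of mitochondrial stress, DIC2, a dicarboxylate carrier of the inner membrane, was the only call. It had 42.0, 41.3 and 48.4 CPM in double mutant libraries and 93.1, 94.6 and 89.3 CPM in wrky18 libraries (-1.07 ± 0.13, adjusted p = 1.62e-06). AOX1A, the alternative oxidase known as a target of WRKY40 in mitochondrial signalling, did not pass the test (0.06, adjusted p = 0.881).

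In the list of 7 heat shock and touch genes, 5 fell, 0 rose and 2 did not pass the test, and the median was -1.19. Like the other lists, it was chosen with earlier results of these data known. HSP70 (AT3G12580, chr3:3991117-3993886, minus strand), a stress-induced cytosolic chaperone, had 23.4, 31.3 and 25.5 CPM in double mutant libraries and 87.3, 71.2 and 91.7 CPM in wrky18 libraries (-1.64 ± 0.19, adjusted p = 3.43e-07). HSFA2, a heat shock transcription factor, had 1.83, 2.59 and 2.18 CPM in double mutant libraries and 8.11, 7.33 and 6.91 CPM in wrky18 libraries (-1.75 ± 0.31, adjusted p = 0.000373). The highest double mutant library was well below the lowest wrky18 library in both. The disaggregase HSP101 fell by 1.19 ± 0.27 on the log2 scale and HSP90.1 by 1.24 ± 0.24. BIP3 is not in this list but is among the 10 largest falls. It is a chaperone of the endoplasmic reticulum that marks the unfolded protein response. BIP3 had 9.29, 6.46 and 6.18 CPM in double mutant libraries and 28.7, 9.75 and 27.3 CPM in wrky18 libraries (-1.60 ± 0.35, adjusted p = 0.0035). The remaining fall of the list was that of TCH2, a calmodulin-like touch gene. Its call was lost without double mutant replicate 2 (0.0947) or wrky18 replicate 3 (0.130), and this gene overlaps AT5G37760 by 723 bases.

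Of 68 tested genes annotated as heat shock proteins or HSP20-like chaperones, a family chosen after values were seen, 15 fell, 0 rose and 53 did not pass the test, and 10 of the falls were called in each of the 6 fits without a library. The median change of all 68 was -0.14, with 22 positive, against -0.01 over all genes tested. In untreated seedlings the family median was -0.10 and for wrky40 against WT at 2 h it was 0.09, with 0 of 68 called in either comparison. Members of the HSP70 and HSP90 groups are similar in sequence and can share reads.

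**Figure D3:**
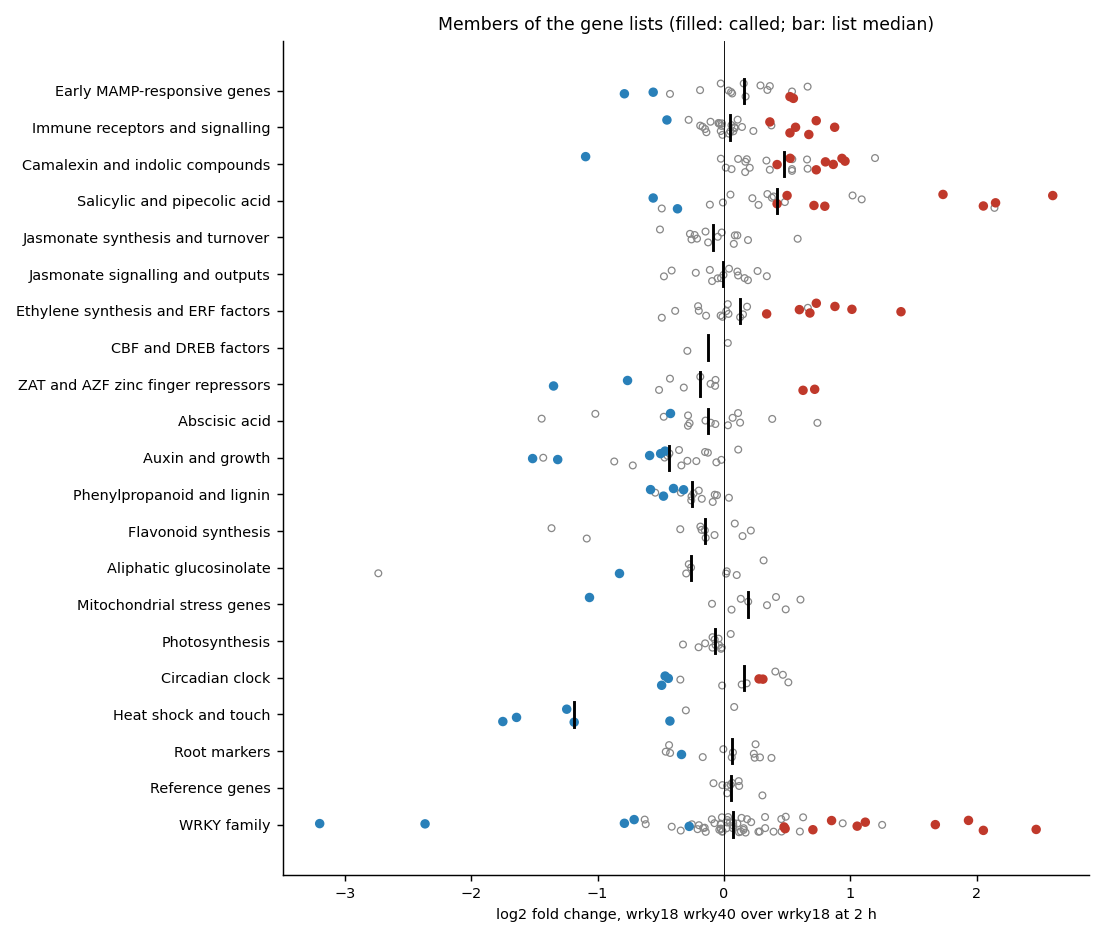
Log2 fold change of the double mutant over wrky18 at 2 h (x axis) for the tested members of 21 gene lists (y axis); filled red and blue points were called higher and lower, open points were not called, and the black bar is the list's median. Salicylic and indolic genes lie mostly to the right (medians 0.42 and 0.47), and auxin and heat shock genes to the left (medians -0.44 and -1.19). The lists were chosen with earlier results of these data known.

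Auxin and growth genes stood mostly lower, with 19 of 20 tested members negative, 5 falls, 0 rises and a median of -0.44. IAA1, an early auxin-induced repressor, had 2.66, 1.96 and 1.84 CPM in double mutant libraries and 5.33, 4.71 and 5.82 CPM in wrky18 libraries (-1.32 ± 0.21, adjusted p = 7.23e-05). PIL6, a growth-promoting phytochrome-interacting factor, had 26.9, 25.8 and 25.3 CPM in double mutant libraries and 39.2, 37.2 and 40.7 CPM in wrky18 libraries (-0.59 ± 0.11, adjusted p = 0.000385). These 2 falls were called in each of the 6 fits without a library. Those of GH3.3, IAA19 and IAA29 were not, and were lost without double mutant replicate 1 (adjusted p = 0.0755, 0.0748 and 0.0679), double mutant replicate 3 (0.135, 0.125 and 0.172), wrky18 replicate 2 (0.0972, 0.0669 and 0.1102) or wrky18 replicate 3 (0.120, 0.0952 and 0.166). The call of IAA19 was also lost without wrky18 replicate 1 (0.0538), and that of IAA29 without double mutant replicate 2 (0.0660). Growth families chosen after values were seen also fell where they were called, namely 8 of 62 SAUR genes, 7 of 17 alpha-expansins and 3 of 27 XTH genes, with 0 rises. In each of these families 1 fall was called in all 6 fits, that of AT1G29500 (-1.93 ± 0.34), of the wall-loosening EXPA5 (-1.01 ± 0.22) and of XTH19 (-0.71 ± 0.14).

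In the phenylpropanoid and lignin list, 14 of 15 genes were negative, with 4 falls and a median of -0.26. OMT1, a methyltransferase of lignin synthesis, had 677, 596 and 645 CPM in double mutant libraries and 931, 815 and 927 CPM in wrky18 libraries (-0.48 ± 0.10, adjusted p = 0.00201), and HCT fell by 0.40 ± 0.09 on the log2 scale. The list also holds the arginine decarboxylase ADC2, not itself a phenylpropanoid gene, which fell by 0.32 ± 0.07 and is counted among the 4 falls. The fall of CAD5 (-0.58 ± 0.15) was lost without double mutant replicate 2 (adjusted p = 0.0775). Among 9 aliphatic glucosinolate genes the regulator MYB28 was the only call, with 5.26, 5.73 and 6.37 CPM in double mutant libraries and 9.56, 9.50 and 12.0 CPM in wrky18 libraries (-0.83 ± 0.15, adjusted p = 0.000569). No flavonoid gene of 11 passed the test.

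Of 12 core clock genes, 2 rose and 3 fell, by small amounts. The morning genes LHY (-0.49 ± 0.11), CCA1 (-0.47 ± 0.11) and RVE8 (-0.44 ± 0.13) fell, and the evening genes PCL1 (0.31 ± 0.09) and TOC1 (0.28 ± 0.09) rose. LHY had 43.3, 39.3 and 44.1 CPM in double mutant libraries and 45.9, 60.6 and 71.8 CPM in wrky18 libraries, so its wrky18 libraries were the more spread. All 5 calls were lost without wrky18 replicate 3, with adjusted p of 0.0911 for LHY, 0.126 for CCA1, 0.390 for RVE8, 0.255 for PCL1 and 0.138 for TOC1. PCL1 overlaps AT3G46650 by 1507 bases. In the abscisic acid list, 1 of 16 tested genes was called, where 6.48% of all genes tested were. The phosphatase PP2CA fell by 0.43 ± 0.12 on the log2 scale, a call lost without 4 of the libraries in turn (adjusted p up to 0.126). Among 2 tested CBF and DREB genes, 12 photosynthesis genes and 9 reference genes there was no call, and the reference genes ran from -0.08 to 0.30.

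Genotypes without and with WRKY40 can also be compared where WRKY18 is present, as wrky40 against WT at 2 h, which shares no library with the comparison above. Both comparisons use the same estimate of each gene's spread, from all libraries. The mutants may also carry the same wrky40 allele, which is not given. The summed level of the 12 photosynthesis genes was 24970 to 28970 CPM in wrky40 and 31370 to 36060 CPM in WT libraries, without overlap. All 12 were negative, with a median of -0.27, and CAB2, RBCS1A and RBCS1B were called lower. The 13 root markers summed to 186.0 to 211.7 CPM in wrky40 and 173.2 to 179.5 CPM in WT libraries, also without overlap, and 1 of them, PHO1, was called, higher by 0.47 ± 0.11. No marker of either list was at 0. In the difference between the backgrounds, all 12 photosynthesis genes were positive and 0 were called. The part of organ proportions in that comparison was not tested. For wrky40 against WT, 858 genes were called (4.02%), 585 higher (2.74%) and 273 lower (1.28%) in wrky40. With the replicate number as a block the count was 1412, and it was 405 without WT replicate 1, 551 without WT replicate 3 and 469 without wrky40 replicate 3. The lower genes varied most, with 578 in the block, 427 with DESeq2, 173 with no filter on low counts, and 80 to 189 without a library, lowest without WT replicate 1 (80) and wrky40 replicate 3 (99). Of the 665 genes higher in the double mutant, 317 were also called higher in wrky40, 47.7% of the first list and 54.2% of the second, and 0 were called lower. Of the 719 genes lower in the double mutant, 52 were also called lower in wrky40, 7.23% and 19.05% of the lists, and 1 was called higher. The overlap of lower genes rests on that unsteady count. The direction was the same in 617 of the 665 higher genes, where 50.2% of all genes tested were positive, and in 547 of the 719 lower genes, where 49.8% were negative.

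Several of the genes above also rose where WRKY18 was present. ACS2 rose by 1.42 ± 0.13 in wrky40, with 106, 110 and 110 CPM in wrky40 libraries and 38.9, 41.7 and 41.3 CPM in WT libraries. EDS16 rose by 2.25 ± 0.18, with 75.4, 140 and 121 CPM in wrky40 libraries and 26.8, 22.2 and 22.03 CPM in WT libraries. CYP71B24 rose by 1.38 ± 0.12 and IGMT1 by 0.74 ± 0.12. The difference between the backgrounds did not pass the test for ACS2 (-0.02 ± 0.18, adjusted p = 0.984), EDS16 (-0.51 ± 0.25, adjusted p = 0.440), CYP71B24 (0.17 ± 0.16, adjusted p = 0.747) or IGMT1 (0.07 ± 0.17, adjusted p = 0.921).

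**Figure D4:**
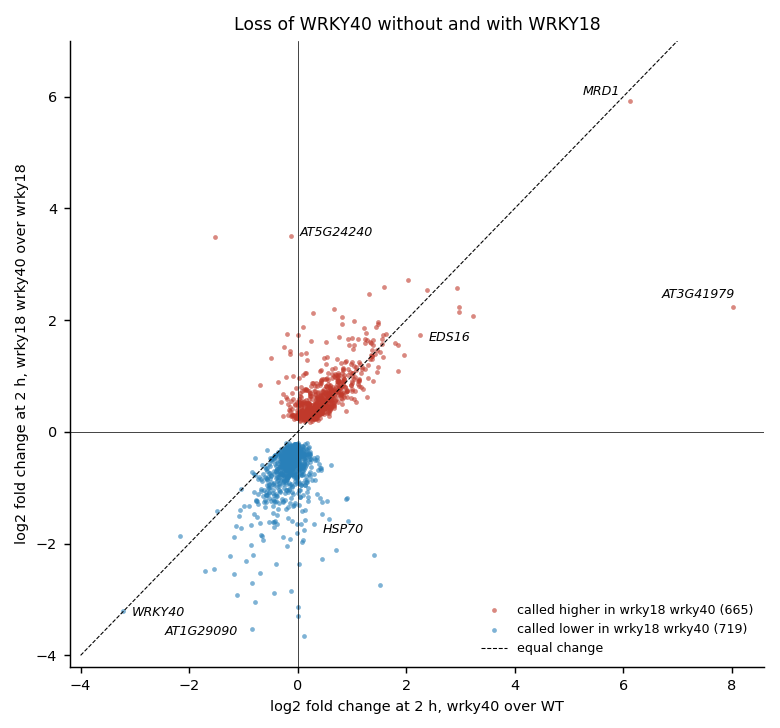
Log2 fold change at 2 h of the double mutant over wrky18 (y axis) against that of wrky40 over WT (x axis) for the 1384 genes called in the first, red where higher and blue where lower in the double mutant; the dashed line marks equal change. The 665 higher genes spread along that line, with 617 to the right of 0, while the 719 lower genes have a median of -0.14 on the x axis; the position of AT3G41979 depends on a WT group with 1 count in all.

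The difference between the backgrounds itself, the change in the double mutant over wrky18 less that in wrky40 over WT, was called in 69 genes (0.323%), 12 positive (0.0562%) and 57 negative (0.267%). With the replicate number as a block 139 genes were called and with DESeq2 166, of which 35.54% were positive against 17.39% in edgeR. The count was 28 to 45 without any 1 of wrky18 replicate 1 or 3, double mutant replicate 1, 2 or 3, WT replicate 2 or 3, or wrky40 replicate 2 or 3, and 141 without wrky40 replicate 1; 21 of the 69 genes were called in each of the 12 fits without a library. AT5G24240 had the largest positive difference, 3.63 ± 0.27 (adjusted p = 4.5e-10). It had 7.92, 8.45 and 9.75 CPM in wrky40 libraries and 9.13, 7.46 and 12.1 CPM in WT libraries, which overlapped. All 3 wrky18 libraries, at 2.79 to 7.17 CPM, lay below these 6, so the difference includes a low wrky18 group as well as the high double mutant.

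HSP70 had 65.9, 107 and 82.8 CPM in wrky40 libraries and 89.4, 58.3 and 61.0 CPM in WT libraries, also overlapping, and its difference between the backgrounds was -1.94 ± 0.26 (adjusted p = 0.000115). The differences of HSP90.1 (-1.79 ± 0.33), ZF3 (-1.18 ± 0.21), AT3G50340 (-1.10 ± 0.17) and AT1G29090 (-2.68 ± 0.44) were called as well, and these, HSP70 and AT5G24240 were called in each of the 12 fits. The differences of DIC2 (-0.75 ± 0.19, adjusted p = 0.0691) and WRKY53 (-0.59 ± 0.23, adjusted p = 0.308) did not pass the test. AT5G46295, an uncharacterized gene, differed in the other genotypes instead. It had 15.2, 10 and 12.3 CPM in double mutant libraries and 17.8, 14.2 and 16.8 CPM in wrky18 libraries (-0.39 ± 0.17, adjusted p = 0.186), but 14.5, 11.3 and 12.1 CPM in wrky40 libraries and 2.49, 1.78 and 2.21 CPM in WT libraries (2.56 ± 0.20, adjusted p = 4.95e-10).

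The same genotypes were compared at 1 h and 0 h, in other libraries. After 1 h, the double mutant had 938 genes called higher (4.39%) and 318 called lower (1.49%), 1256 in all (5.88%). With the block the count was 1964, and it was 557 without wrky18 replicate 1, 568 without wrky18 replicate 2, 614 without double mutant replicate 1 and 632 without double mutant replicate 3. Before flg22, it had 215 genes called higher (1.01%) and 97 called lower (0.454%), 312 in all (1.46%). This count was the least stable, with 640 in the block, 623 with DESeq2 and 6 in a fit of only these groups. It was 117, 16 and 723 without wrky18 replicates 1, 2 and 3, and 542, 69 and 34 without double mutant replicates 1, 2 and 3.

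Of the 665 genes higher at 2 h, 260 were also higher at 1 h, 39.1% of the 2 h list and 27.7% of the 1 h list, and 45 were higher at 0 h. For 383 there was no such call at either time. Of the 719 genes lower at 2 h, 53 were also lower at 1 h and 26 at 0 h, and 646 had no such call at either time. Called the other way were 11 of these at 1 h and 4 at 0 h, and 2 and 0 of the higher genes. A missing call does not make a difference particular to 2 h. The change was positive for 598 of the higher genes at 1 h and 523 at 0 h. Over all genes tested, 49.81% and 47.85% were positive. For the lower genes it was negative in 518 at 1 h and 539 at 0 h, against 50.17% and 51.98% of all genes. Called higher at 0, 1 and 2 h and in wrky40 against WT were 17 genes, namely NLA, IGMT3, MRD1, HEI10, CRK2, AT2G15042, PNP-A, AT2G47550, RLP38, AT3G29000, QQS, AT3G41979, ARCK1, CRK11, WRKY18, AT5G42830 and BIR1. WRKY40 was the only gene called lower in all 4. Membership depends on the calls at 0 h, whose number was the least stable. At 0 h the adjusted p of the 17 genes ran from 9.23e-19 for MRD1 to 0.0476 for AT2G47550. For AT3G41979, the ribosomal RNA gene, the WT libraries at 2 h held 1 count in all. In WT, 15333 genes were called at 2 h of flg22 against 0 h (71.8%), 7831 higher (36.7%) and 7502 lower (35.1%). Of the genes higher in the double mutant at 2 h, 518 of 665 (77.9%) were called higher after flg22 in WT and 65 lower. Of the genes lower in the double mutant, 332 of 719 (46.2%) were called lower after flg22 in WT and 247 (34.4%) higher.

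Whether the difference between the genotypes was the same at 2 h as untreated was tested as the difference of their changes from 0 h. Its sign gives the direction of the shift and does not show a larger difference at 2 h. The difference of the changes was called in 227 genes (1.06%), 71 positive (0.332%) and 156 negative (0.73%). The count was 132 to 144 without wrky18 2 h replicate 3, double mutant 2 h replicate 2, or double mutant 0 h replicate 2 or 3, and 90 of the 227 genes were called in each of the 12 fits without a library. EDS16 overlapped between the genotypes before flg22, with 9.24, 9.58 and 13.6 CPM in double mutant and 9.10, 11.2 and 7.98 CPM in wrky18 libraries at 0 h. At 1 h it had 22.3, 21.2 and 22.9 CPM in double mutant and 10.9, 20.5 and 15.2 CPM in wrky18 libraries (0.52, adjusted p = 0.107), without overlap but short of the threshold, and at 2 h the difference was called (difference of the changes 1.54 ± 0.27, adjusted p = 0.00192). CYP71B24 at 1 h had 127, 128 and 124 CPM in double mutant and 43.6, 45.1 and 46.1 CPM in wrky18 libraries, also without overlap. Its libraries at 0 h had 32.7, 29.3 and 26.0 CPM in double mutant and 25.1, 23.2 and 28.2 CPM in wrky18, which overlapped (difference of the changes 1.35 ± 0.17, adjusted p = 2.10e-05). CNGC11, a cyclic nucleotide-gated channel, also had a positive difference of 1.46 ± 0.30.

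Among the negative differences, DIC2 had 12.96, 14.9 and 16.0 CPM in double mutant and 9.42, 9.65 and 12.0 CPM in wrky18 libraries at 0 h. At 1 h it had 338, 336 and 312 CPM in double mutant and 479, 448 and 386 CPM in wrky18 libraries (-0.41, adjusted p = 0.0508), without overlap, and at 2 h the difference was called (difference of the changes -1.57 ± 0.19, adjusted p = 2.10e-05). WRKY53 went the same way, at 3.21, 4.64 and 4.04 CPM in double mutant and 2.51, 2.57 and 2.77 CPM in wrky18 libraries at 0 h, with a difference of the changes of -1.39 ± 0.28 (adjusted p = 0.00834). That call was lost without double mutant 0 h replicate 2 (adjusted p = 0.0504). For CBP60G the difference was -1.08 ± 0.20, for WRKY7 -0.89 ± 0.16, for PIL6 -0.72 ± 0.14, for AT3G21330 -1.85 ± 0.35 and for AIG1 -1.92 ± 0.39, and these were called in each of the 12 fits.

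**Figure D5:**
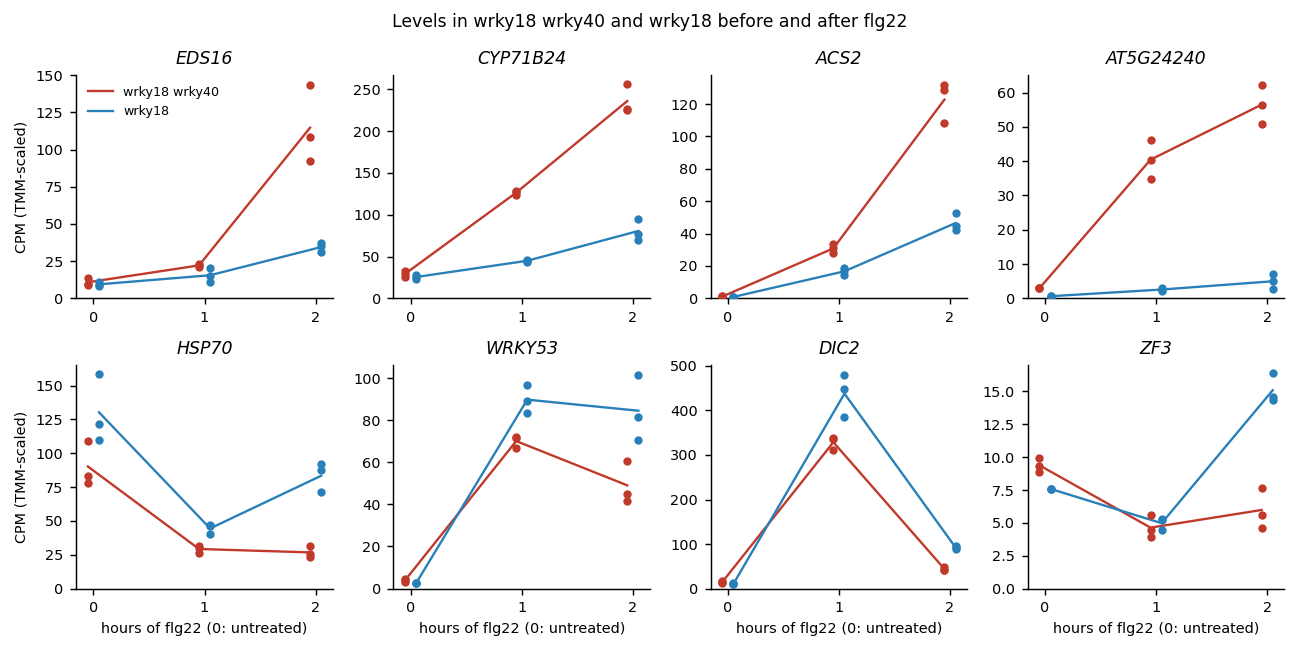
Levels of 8 genes in CPM scaled by TMM (y axis, from 0) against hours of flg22 (x axis, 0 is untreated) in wrky18 wrky40 (red) and wrky18 (blue); each point is a library and lines join the means of 3. EDS16 and CYP71B24 overlap at 0 h and are apart at 1 h and 2 h, AT5G24240 is apart at each time, and WRKY53, DIC2 and ZF3 are lower in the double mutant at 2 h; DIC2 is also lower without overlap at 1 h (adjusted p = 0.0508).

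Genes near WRKY40 were examined because linked sequence is carried along with a mutant allele. Within 500 kb of WRKY40, 12 of 143 tested genes were called, WRKY40 itself included, 8.39%, with 9 higher and 3 lower, against 6.26% to 6.73% over each of the 5 chromosomes. AT1G80850, a DNA glycosylase gene that overlaps WRKY40 by 51 bases on the other strand, had 6.09, 7.09 and 7.23 CPM in double mutant libraries and 4.90, 3.54 and 4.04 CPM in wrky18 libraries (0.71 ± 0.12, adjusted p = 0.000246). The wall-associated kinase-like gene WAKL10 had 466, 406 and 462 CPM in double mutant libraries and 272, 282 and 250 CPM in wrky18 libraries (0.73 ± 0.14, adjusted p = 0.00121). The kinase gene AT1G80870 fell by 0.58 ± 0.10 on the log2 scale, and these 3 neighbours were called in each of the 6 fits without a library. The calls of GA2, NUDT3, GLYI7, AT1G80380, AT1G80440, AT1G80450 and J8, which rose, and of NIP6;1, which fell, were each lost without at least 1 of the libraries, with adjusted p of up to 0.182 for NIP6;1. The part of linked sequence in these changes was not tested.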

How the data were processed

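Seedlings were profiled by stranded polyA RNA-seq. The authors deposited 1 table of raw read counts per gene for 36 libraries. The tools named are FastQC 0.11.2, TopHat2 2.0.10 and HTSeq, with the build TAIR10, per the submitters' processing notes. Their settings, including the strand setting of the counting, are not given in the sources used here. Gene names, positions and promoters come from RefSeq TAIR10.1, which held 21220 of the 21356 tested genes.

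From these counts, 12 group means were fitted to all libraries with edgeR 4.0.16 (filterByExpr, TMM, quasi-likelihood test, R 4.3.3, limma 3.58.1), with 24 residual degrees of freedom and a common biological variation of 10.71%. SE is the log2 fold change over the root of F. All adjusted p values are two-sided edgeR values with Benjamini-Hochberg adjustment over all tested genes, called below 0.05, unless DESeq2 1.42.0 is named. Of 32678 genes, 6155 had no count. On simulated data for the 2 h comparison, with 21356 genes, 89.55% of 2-fold rises and 85.07% of 2-fold falls were called. Of 1.5-fold rises, 69.7% were called, and 11 of all 174 calls were false. Genes at low levels were not among those changed, and the counts were drawn without replicate sets.

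The study's design describes 3 biological replicates of 12 samples each, so a replicate number marks a set. Same-numbered double mutant and wrky18 libraries at 2 h deviated together, with correlations of 0.153, 0.183 and 0.187. Fits with the replicate number as a block were therefore run as alternatives. RLE scaling, DESeq2, no filter, a fit of only the groups compared and leaving out each library were the others. Totals of 17287229 to 38709715 counts limit precision for genes near 1 CPM.

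Named genes were WRKY18, WRKY40 and WRKY60; the 10 largest called changes each way whose libraries did not overlap and whose mean level reached 1 log2 CPM; up to 4 called genes per list by adjusted p; the 5 largest differences each way between backgrounds and between times; and called genes within 500 kb of WRKY40. Further list members are given for their roles. The comparison, lists and rules were chosen with earlier results of these data known, and gene families after values were seen.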

Additional observations from a re-analysis of the deposited data

Results flagged for a closer look

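The change between genotypes without and with WRKY40 differed between the wrky18 and WT backgrounds in 69 genes by the test of the difference itself (edgeR). Given as log2 differences, the positive ones among the named genes were AT5G24240 (3.63), AT1G13470 (1.82), AT5G60800 (0.90), AGD15 (0.89) and SKP2A (0.85). Among the heat shock genes they were HSP70 (-1.94), HSFA2 (-1.86), HSP90.1 (-1.79), HSP101 (-1.59) and BIP3 (-2.52). Other negative ones were AT5G46295 (-2.95), AT1G29090 (-2.68), AT3G49970 (-2.45), AT3G28220 (-2.09), IAA1 (-1.25), ZF3 (-1.18), AT3G50340 (-1.10) and LHY (-0.69). AT3G41979 had a fitted difference of -5.79 that depends on the prior count, since it had 264 counts over the double mutant, 64 over wrky18, 329 over wrky40 and 1 over the WT libraries. Of these 19 genes, AT5G24240, AT1G29090, HSP70, AT3G50340, ZF3, HSP90.1 and AT5G46295 were called in each of the 12 fits that left out a library. The other 12 were lost in at least 1 of them, at adjusted p of up to 0.221 for IAA1.

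The difference between double mutant and wrky18 was not the same at 2 h as at 0 h in 227 genes by the test of the difference (edgeR). Positive log2 differences were those of HB18 (2.81), EDS16 (1.54), CNGC11 (1.46), CYP71B24 (1.35) and AT1G21520 (1.32). Among regulators, negative ones were WRKY53 (-1.39), WRKY7 (-0.89), CBP60G (-1.08), ZF3 (-1.65), ZF1 (-1.14), AT3G21330 (-1.85), PIL6 (-0.72), MYB28 (-0.78) and PP2CA (-0.75). Heat shock genes with a negative difference were HSFA2 (-1.63), HSP70 (-1.11) and BIP3 (-2.16). The rest were YUC5 (-2.55), WAG2 (-2.43), AT1G29090 (-2.34), AT3G49970 (-2.18), AIG1 (-1.92), AT3G50340 (-1.59), DIC2 (-1.57), OMT1 (-0.64) and AT1G80870 (-0.56). Of these 26 genes, AT1G29090, AT3G21330, AT3G50340, AIG1, CBP60G, EDS16, ZF3, PIL6, DIC2, WRKY7, WAG2, CNGC11 and CYP71B24 were called in each of the 12 fits without a library. The other 13 were lost in at least 1, at adjusted p of up to 0.229 for ZF1.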

How the results depend on the processing

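Between double mutant and wrky18 at 2 h, 1298 to 1790 genes were called with RLE scaling, DESeq2, no filter, the replicate block (1766) or a fit of only the groups compared, and 648 to 1165 without a library. Of the 90 named genes, 60 kept their direction and their side of the threshold in every alternative, and none reversed. At 1 h the block gave 1964 calls, and leaving out a library gave 557 to 1476. At 0 h the block gave 640 calls, DESeq2 623 and the fit of only the groups compared 6, with 16 to 723 without a library. For wrky40 against WT the block gave 1412 calls, with 405 to 648 without a library. For the difference between backgrounds the block gave 139 calls and DESeq2 166, with 28 to 141 without a library. For the difference between 2 h and 0 h DESeq2 gave 395 calls and the fit of only the groups compared 141, with 132 to 296 without a library. The causes of these shifts were not tested. In WT, flg22 against untreated gave 14582 to 15715 calls throughout. The block ended no call of a named gene. Genes near 1 CPM, such as ALD1 and WRKY49, rest on few counts, so smaller changes of such genes may have been missed. How small a change could be detected at such levels was not tested.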
